A study of Mus musculus with 18 samples.

Results

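De novo lipogenesis is the route by which hepatocytes build fatty acids from the carbon of glucose and acetate, and 10 genes of that route were described in liver RNA of mice that carry an error-prone ribosomal protein. The members were Acly, Acss2, Me1, Acaca, Acacb, Fasn, Elovl6, Scd1, Thrsp and Mlxipl. They were found by gene symbol and matched to Ensembl identifiers, and all 10 are among the 22524 genes listed for each library and among the 13353 genes that were abundant enough to test. All mice were females of 15 months on a C57BL/6 background, with liver RNA sequenced as 1 library per mouse. The A226Y group (n = 10) was heterozygous for a knock-in allele of Rps2, a protein of the small ribosomal subunit, with tyrosine in place of an alanine, a change that lowers the accuracy of translation. That allele stays silent behind a stop cassette flanked by loxP sites until Cre, driven from the ubiquitous CMV promoter, removes the cassette. Excision was partial in these animals, so each A226Y liver was a mosaic of cells with the mutant allele and cells in which that copy of Rps2 was still silenced. The WT group (n = 8) carried the CMV-Cre transgene and intact Rps2, and mice with the silenced allele alone were not analysed here. Feeding state and time of day at collection are not given in the sources used here.

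The pathway starts when ATP citrate lyase (Acly) splits citrate, or acyl-CoA synthetase short-chain family member 2 (Acss2) activates acetate, to give cytosolic acetyl-CoA. Acetyl-CoA carboxylases (Acaca, Acacb) turn it into malonyl-CoA, fatty acid synthase (Fasn) assembles palmitate with NADPH that malic enzyme (Me1) helps to supply, and an elongase (Elovl6) and a desaturase (Scd1) lengthen and desaturate the product. Mlxipl encodes ChREBP, a transcription factor that responds to sugar and binds DNA as a dimer with Mlx, and Thrsp encodes a small thyroid hormone responsive protein that follows lipogenic activity closely. In liver the programme is known to be raised by feeding, through insulin, SREBP-1c and ChREBP, and lowered by fasting.

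The stretch directly upstream of the start site is shown for 3 of the 5 members that were lower in A226Y. Those are the windows in which a transcript start of RefSeq and of GENCODE coincide and no annotated exon of the same gene lies. Exons of other genes were not looked for. RefSeq promoters (GRCm38.p6) were matched for 9 of the 10 members, with 11 start sites, and each window holds the 250 bases before the start, read 5′ to 3′ on the gene's strand. Mlxipl has 2 start sites 17001 bases apart, and gene counts do not separate the transcripts that use them. Scd1 was not matched. The windows are chr11:100528001-100528250 (minus strand) for Acly, chr11:120824548-120824797 (minus strand) for Fasn, chr5:135089640-135089889 (plus strand) for the upstream start of Mlxipl and chr5:135106641-135106890 (plus strand) for its downstream start. Capitals mark matches to any of the motifs named below.
Acly: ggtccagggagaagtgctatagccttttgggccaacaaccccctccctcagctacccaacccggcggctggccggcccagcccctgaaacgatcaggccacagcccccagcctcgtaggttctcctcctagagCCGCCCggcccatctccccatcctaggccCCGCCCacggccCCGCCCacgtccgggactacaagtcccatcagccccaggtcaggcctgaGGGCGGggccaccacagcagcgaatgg
Fasn: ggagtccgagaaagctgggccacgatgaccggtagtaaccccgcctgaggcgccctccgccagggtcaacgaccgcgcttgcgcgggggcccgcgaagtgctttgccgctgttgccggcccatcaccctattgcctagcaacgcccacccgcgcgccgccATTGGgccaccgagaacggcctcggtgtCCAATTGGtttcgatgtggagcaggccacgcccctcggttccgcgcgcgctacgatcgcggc
Mlxipl, upstream start: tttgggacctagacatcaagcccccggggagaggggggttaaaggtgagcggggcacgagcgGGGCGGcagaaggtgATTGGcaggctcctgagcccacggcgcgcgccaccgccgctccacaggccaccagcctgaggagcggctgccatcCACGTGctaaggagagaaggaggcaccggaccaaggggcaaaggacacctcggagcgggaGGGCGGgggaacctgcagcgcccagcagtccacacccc
Mlxipl, downstream start: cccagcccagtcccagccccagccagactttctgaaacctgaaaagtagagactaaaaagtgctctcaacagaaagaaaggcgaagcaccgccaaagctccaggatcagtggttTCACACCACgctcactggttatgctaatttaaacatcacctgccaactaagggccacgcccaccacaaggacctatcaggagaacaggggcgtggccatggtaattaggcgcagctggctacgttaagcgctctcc

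Motifs were searched on both strands by their letters, and a match describes letters only. The E-box CACGTG was in 6.02% of all 32851 promoter windows and in 1 of the 11 windows of the members, the upstream start of Mlxipl, at -98 to -93 from the start. The SREBP-type element TCACNCCAC was in 1.05% of all windows and in 1 member window, the downstream start of Mlxipl, as TCACACCAC at -136 to -128. Paired E-boxes of the ChoRE kind, which ChREBP recognises, were in 0.454% of all windows and in 0 of the 11, and the DR4 repeat, of the kind thyroid hormone receptors recognise, was in 0.0152% and in 0 of the 11. The CCAAT box was in 33.8% of all windows and in 6 member windows, and the GC box GGGCGG was in 32.7% and in 4. Fasn carries 3 CCAAT matches, the last 2 of which overlap in the letters CCAATTGG, and Acly carries 4 GC boxes. The E-box and paired E-box patterns share letters and can overlap, but no such overlap occurs in the member windows.

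Across the series the libraries held 23850565 to 62126131 counts in A226Y and 25869192 to 34918732 in WT. The targeted gene, Rps2, measured 46.9 to 83.0 CPM (counts scaled to library size) in A226Y and 103.9 to 143.1 CPM in WT, lower in every A226Y mouse (log2 fold change -0.73, SE 0.11, edgeR adjusted p = 0.000772), and gene counts do not separate its alleles. Hepatocyte markers summed to between 77126.7 and 177302.5 CPM in all mice, which goes with the tissue label. A226Y animal 29 and WT animal 33 stood apart: their median correlation with the other libraries was 0.964 and 0.968, against 0.975 to 0.988 for the rest, and animal 29 had the lowest hepatocyte sum and the highest Kupffer cell sum (919.7 CPM). Without both libraries the members gave 5 lower and 0 higher, as with them.

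Among the 10 lipogenic genes, 5 were lower in A226Y liver, 0 were higher and 5 did not pass the test, where 14.3% of all tested genes passed in either direction, 7.03% as lower and 7.27% as higher. Thrsp fell the most, to 0.231 of its WT level, followed by Fasn at 0.626, Acly at 0.684, Mlxipl at 0.692 and Acss2 at 0.71. The median log2 fold change of the members was -0.44, beside -0.004 for all tested genes, and it was negative for 9 of 10 members, beside 51.0% of all genes. No member separated the genotypes completely: in each, the range of the A226Y mice overlapped that of the WT mice, while 0.285% of tested genes had every A226Y library below every WT library and 0.352% had every one above. An exact permutation test over the 43758 ways of dividing the mice into 10 and 8 gave the same 5 members as lower, beside 6.16% of all genes. Calls are edgeR quasi-likelihood tests with Benjamini-Hochberg adjustment over all tested genes, and in whole liver a lower level in the same cells cannot be told apart from fewer cells that hold the transcript.

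**Figure D1:**
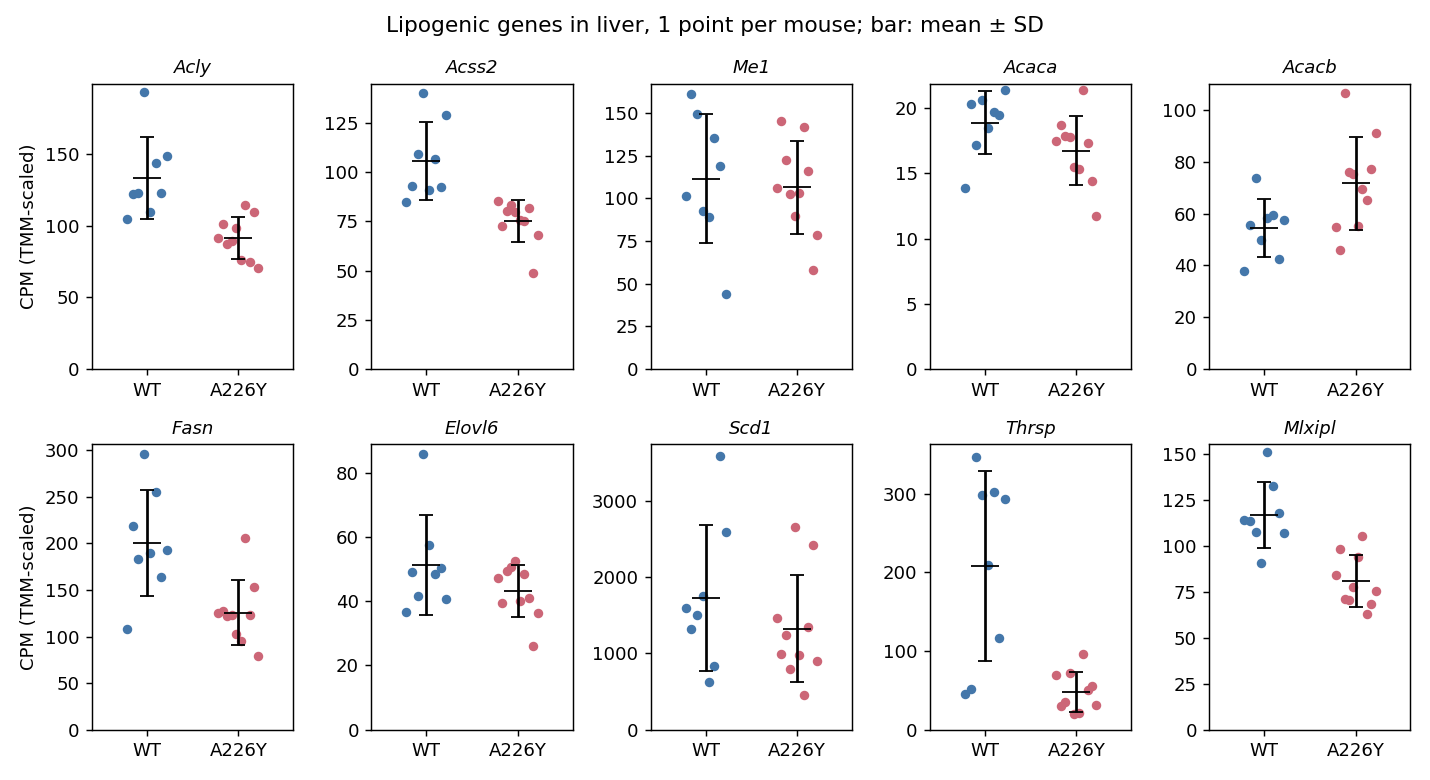
Each panel plots 1 lipogenic gene, with CPM on the y axis (linear, from 0) and genotype on the x axis; points are single mice and bars give the mean ± SD (10 A226Y and 8 WT mice). Thrsp lies between 20.3 and 96.5 CPM in A226Y while 6 of the 8 WT mice lie above that range, and the groups overlap in all 10 panels.

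Among the enzymes that make cytosolic acetyl-CoA, both Acly and Acss2 were lower. Acly (ENSMUSG00000020917, chr11:100476353-100528000, minus strand, GRCm38) had a lowest, median and highest level of 70.6, 90.5 and 114.3 CPM in A226Y and of 105.0, 122.9 and 193.4 CPM in WT. All 10 A226Y mice were under the WT mean and 8 were under every WT mouse, so the overlap came from a few animals at the edge of each range. The means were 91.4 ± 14.8 and 133.6 ± 28.4 CPM (SD), with a log2 fold change of -0.55 (SE 0.12, edgeR adjusted p = 0.00531), and the exact permutation test gave p = 0.000251 (adjusted p = 0.00915). WT animal 14 had the highest Acly, and without it the log2 fold change was -0.45, the smallest of the fits that left out 1 mouse. With surrogate variables it was -0.34 and did not pass (edgeR adjusted p = 0.164).

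Acss2 (ENSMUSG00000027605, chr2:155517948-155585724, plus strand) ran from 48.7 through a median of 77.6 to 85.6 CPM in A226Y and from 85.0 through 99.8 to 140.5 CPM in WT. Only the A226Y mouse with the highest value, animal 3, exceeded a WT mouse, and 7 of 8 WT mice were above every A226Y mouse. This gave a log2 fold change of -0.49 (SE 0.11, edgeR adjusted p = 0.00607), with p = 4.57e-05 in the exact permutation test (adjusted p = 0.0054). Its exons overlap those of Ggt7 and Gss on the other strand, and Gss had 99.3% as many counts as Acss2, so that the value is uncertain where the counting did not use strand, which the sources used here do not state. Leaving out both libraries that stood apart gave -0.39 (edgeR adjusted p = 0.00619).

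Me1 (ENSMUSG00000032418, chr9:86581371-86695953, minus strand), the cytosolic malic enzyme, measured 58.2, 104.7 and 145.4 CPM at its lowest, median and highest in A226Y and 44.0, 110.3 and 161.5 CPM in WT. The A226Y range lay inside the WT range. Its log2 fold change was -0.07 with a 95% interval of -0.46 to 0.32 (edgeR adjusted p = 0.852), and the sign turned to 0.03 without WT animal 6.

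The 2 acetyl-CoA carboxylases did not move in the same direction in their point estimates, and neither passed the test. Acaca (ENSMUSG00000020532, chr11:84129672-84401651, plus strand), the cytosolic form that makes malonyl-CoA for synthesis, measured 11.7, 17.4 and 21.4 CPM at its lowest, median and highest in A226Y and 13.9, 19.6 and 21.4 CPM in WT. The ranges nearly coincided at the top, and 9 of 10 A226Y mice were under the WT mean. The log2 fold change was -0.17 (95% interval -0.36 to 0.02, edgeR adjusted p = 0.242), and it passed under an offset for transcript length (-0.31, edgeR adjusted p = 0.0331).

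Acacb (ENSMUSG00000042010, chr5:114146535-114250761, plus strand) encodes the form at the outer mitochondrial membrane, whose malonyl-CoA restrains fatty acid entry for oxidation. It was the single member with a positive estimate. Its levels were 45.8, 72.3 and 106.8 CPM in A226Y and 37.7, 56.7 and 73.7 CPM in WT, and the A226Y mice exceeded the WT mean in 9 of 10 cases and every WT mouse in 5. The log2 fold change of 0.40 (SE 0.15) had a 95% interval of 0.11 to 0.69 and an edgeR adjusted p of 0.0717, and the exact permutation test gave p = 0.0292 (adjusted p = 0.121). The call depended on the setting, since the adjusted p fell under the threshold with library size alone (0.0398), with DESeq2 (0.0417), with an offset for GC content (0.0423) and on leaving out A226Y animal 5 (0.0322) or WT animal 13 (0.0465).

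Fasn (ENSMUSG00000025153, chr11:120805846-120824547, minus strand), the multifunctional synthase of the pathway, measured 79.5, 122.8 and 205.6 CPM at its lowest, median and highest in A226Y and 107.8, 191.0 and 295.6 CPM in WT. Its groups overlapped more than those of Acly and Acss2: 9 of 10 A226Y mice were under the WT mean, and 3 were under every WT mouse. A226Y animal 22, at 205.6 CPM, was above the WT mean of 200.8 ± 57.2 CPM, and WT animal 4, at 107.8 CPM, was below the A226Y mean of 125.7 ± 34.5 CPM. Between genotypes the log2 fold change was -0.68 (SE 0.17, edgeR adjusted p = 0.0145), with p = 0.00398 in the exact permutation test (adjusted p = 0.0374). It stayed between -0.78 and -0.57 when any 1 mouse was left out, and with surrogate variables it was -0.48 and did not pass (edgeR adjusted p = 0.228).

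The enzymes that finish the chain did not pass the test. Elovl6 (ENSMUSG00000041220, chr3:129532355-129638495, plus strand), which elongates palmitate to stearate, measured 26.2, 44.0 and 52.5 CPM in A226Y and 36.7, 48.8 and 85.9 CPM in WT. The highest WT value belonged to animal 14 and stood apart from the next, 57.6 CPM. For the comparison the log2 fold change was -0.25 (95% interval -0.54 to 0.04, edgeR adjusted p = 0.263), and -0.11 without that mouse.

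Scd1 (ENSMUSG00000037071, chr19:44394455-44407879, minus strand), the desaturase that makes oleate, measured 449.9, 1114.3 and 2647.1 CPM at its lowest, median and highest in A226Y and 626.5, 1541.6 and 3578.4 CPM in WT. It varied widely within each genotype, with a coefficient of variation of 53.0% in A226Y and 55.6% in WT. The log2 fold change was -0.38 with a 95% interval of -1.02 to 0.26 (edgeR adjusted p = 0.462), an interval that holds both no change and a fall as large as that of Fasn. Without WT animal 28, which had the highest level, the value was -0.14. Counts for Scd1 made up 33.9% to 81.2% of the summed CPM of the members in single A226Y mice and 39.1% to 80.9% in WT mice, so a sum over the members mainly follows this gene.

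Thrsp (ENSMUSG00000035686, chr7:97412938-97417730, minus strand) showed the largest difference of the 10. In A226Y its lowest, median and highest levels were 20.3, 43.1 and 96.5 CPM, and in WT they were 45.3, 251.9 and 346.7 CPM. Every A226Y mouse was under the WT mean, and 6 of 8 WT mice were above every A226Y mouse. The other WT mice, animals 4 and 6 at 45.3 and 52.2 CPM, lay within the A226Y range, and animal 28 was the next lowest WT mouse at 116.5 CPM. The log2 fold change was -2.11 (SE 0.39, 95% interval -2.88 to -1.35, edgeR adjusted p = 0.00285), and the exact permutation test gave p = 0.00126 (adjusted p = 0.0207). Only 17 of the 13353 tested genes had a lower log2 fold change. With 4 surrogate variables in the model the value was -0.85 (edgeR adjusted p = 0.323).

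The WT mice with low Thrsp also had the highest summed level of genes known to rise on fasting. The summed CPM of 9 such genes was 11298.1, 13246.0 and 12572.3 in WT animals 4, 6 and 28 and ranged from 4718.9 to 9535.7 in the other WT mice. Single genes did not all follow the sum: WT animal 4 had the lowest WT level of Pdk4 (6.33 CPM), Cpt1a (527.5 CPM) and Plin2 (270.5 CPM). A226Y animal 22, with the highest A226Y Thrsp (96.5 CPM), had a sum of 16302.7 CPM. In A226Y the sum ranged from 8043.0 in animal 29 to 18537.8 in animal 7, and its median was 14214.0, beside 9378.7 in WT. Cyp4a14 alone, at 7116.4 ± 1506.6 CPM in A226Y and 3640.5 ± 2148.9 CPM in WT, made most of that gap, and it did not pass the test (edgeR adjusted p = 0.0585). All 9 genes had a positive log2 fold change (median 0.41), and 1 of 9 passed the test, Ppargc1a, a coactivator of the fasting response (22.2 ± 5.65 against 13.3 ± 3.27 CPM, edgeR adjusted p = 0.00539). These WT animals were singled out after their values were seen, and the part of nutritional state in the lipogenic results was not tested. Of 11 clock genes tested, Clock passed as higher (log2 fold change 0.61, edgeR adjusted p = 0.000932). Every A226Y mouse was above every WT mouse for Clock, as in 0.352% of all tested genes. Values of the clock genes ran from -0.42 (Per3) to 0.61, with 5 below 0 and a median of 0.08, and 4 had an unadjusted p under 0.05. The part of collection time was not tested either.

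Mlxipl (ENSMUSG00000005373, chr5:135089890-135138382, plus strand), the gene of ChREBP, measured 62.9, 76.6 and 105.4 CPM at its lowest, median and highest in A226Y and 90.6, 113.8 and 150.8 CPM in WT. All 10 A226Y mice were under the WT mean, 7 were under every WT mouse, and 7 of 8 WT mice were above every A226Y mouse. Its log2 fold change was -0.53 (SE 0.11, edgeR adjusted p = 0.00389), and the exact permutation test gave p = 0.000457 (adjusted p = 0.0124). Mlxipl and Acss2 were the members whose call held in every alternative fit, and for Mlxipl the largest edgeR adjusted p among them, 0.027, came with surrogate variables.

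**Figure D2:**
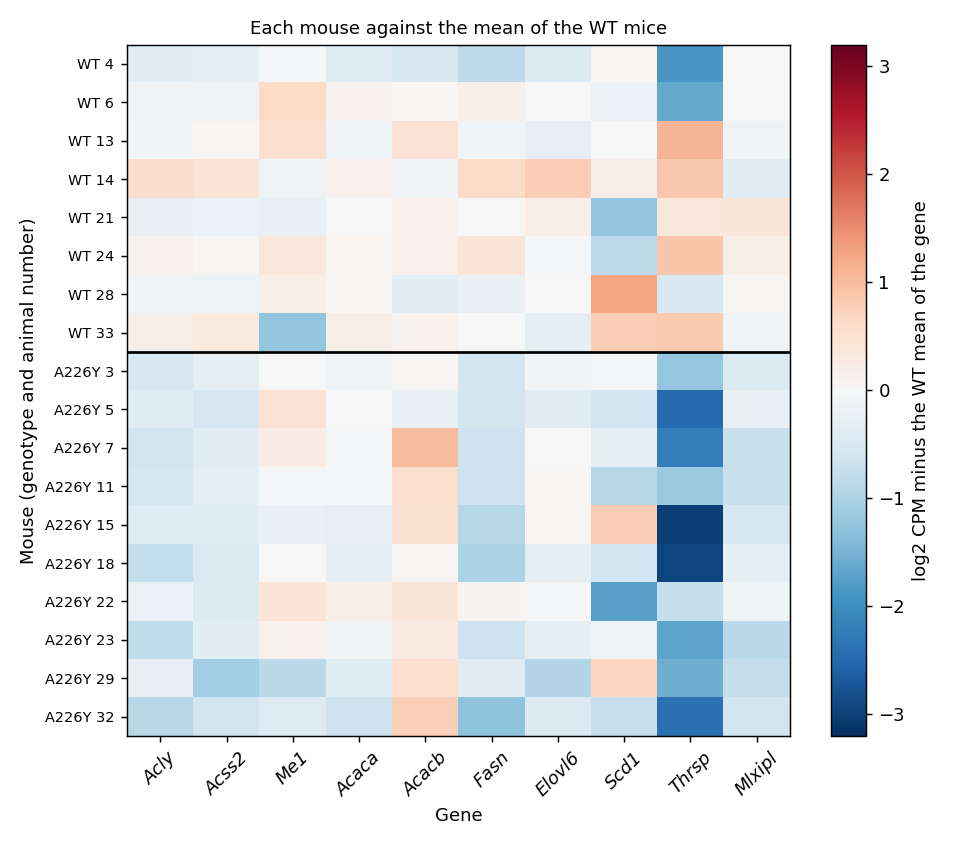
Rows are single mice (WT above the line, A226Y below it, with animal numbers), columns are the lipogenic genes, and colour gives log2 CPM minus the WT mean of that gene, blue for lower. Thrsp, Acly, Acss2 and Mlxipl are below the WT mean in all 10 A226Y mice, and the row of WT animal 4 resembles the A226Y rows for Thrsp and Fasn.

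Individual mice carried the pattern unevenly. In 9 of the 10 A226Y mice all 5 called members were below their WT means, and in animal 22 the count was 4, with Fasn above. Animal 22 had the highest A226Y level of Acly, Acaca, Fasn, Thrsp and Mlxipl and the lowest of Scd1. Among WT mice the count ran from 0 in animal 24 to 5 in animal 4, which had the lowest WT level of Acly, Acss2, Acaca, Acacb, Fasn, Elovl6 and Thrsp. WT animal 14 was at the other end for Acly, Acss2, Fasn and Elovl6 but had the lowest WT Mlxipl, at 90.6 CPM.

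Per kilobase of annotated exon, the order of median levels in WT was Scd1 (315.1 CPM per kb), Thrsp (115.1), Me1 (28.7), Acly (23.3), Mlxipl (20.5), Fasn (17.4), Acss2 (9.82), Elovl6 (7.58), Acacb (5.89) and Acaca (1.15). Neighbours in this order overlapped in range over the 8 WT mice, except Acacb and Acaca. In A226Y the median level of Thrsp was 19.7 CPM per kb, between Me1 at 27.2 and Acly at 17.1, and Acacb at 7.51 was beside Acss2 at 7.64. Scd1 (227.8 CPM per kb) and Me1 did not overlap in A226Y, nor did Elovl6 (6.84) and Acaca (1.02). The lengths join all exons of a gene, so a gene with long rarely used exons is placed too low on this scale.

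Within a genotype the members varied together only in part. Over 18 mice with genotype means removed, 27 of 45 pairs had a positive Pearson r, and the median r was 0.14, or 0.05 without WT animal 4. Acly and Fasn rose and fell together (r = 0.80, permutation p = 0.00024, adjusted p = 0.0108; Spearman rho 0.73, permutation p = 0.00126, adjusted p = 0.0567), with r = 0.80 within A226Y and 0.79 within WT. Acaca and Fasn had r = 0.76 (permutation p = 0.00052, adjusted p = 0.0117) and rho 0.67 (permutation p = 0.00358, adjusted p = 0.0805). These 2 pairs passed on Pearson's r, and 0 pairs passed on both measures. Leaving out the 2 mice farthest from the median of the first gene gave r = 0.68 for Acly and Fasn and r = 0.52 for Acaca and Fasn.

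For Mlxipl the pooled values joined r values of opposite sign in the genotypes for several enzymes. Its r with the mean of the other members was -0.14, beside 0.77 for Acaca, 0.75 for Fasn, 0.60 for Acly and 0.51 for Thrsp. Within A226Y it had r = 0.37 with Acly, 0.40 with Acaca, 0.27 with Fasn and 0.12 with Acss2, and within WT r = -0.63, -0.15, -0.20 and -0.64 with the same genes, a difference that was not tested. The pair farthest below 0 was Scd1 and Mlxipl (r = -0.57, permutation p = 0.0162, adjusted p = 0.121; rho -0.49, permutation p = 0.0457, adjusted p = 0.294), which did not pass, with r = -0.28 without the 2 farthest mice. Scd1 had r = -0.37 with the mean of the others, Me1 0.06 and Acacb -0.02. All these values share library depth and scaling.

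**Figure D3:**
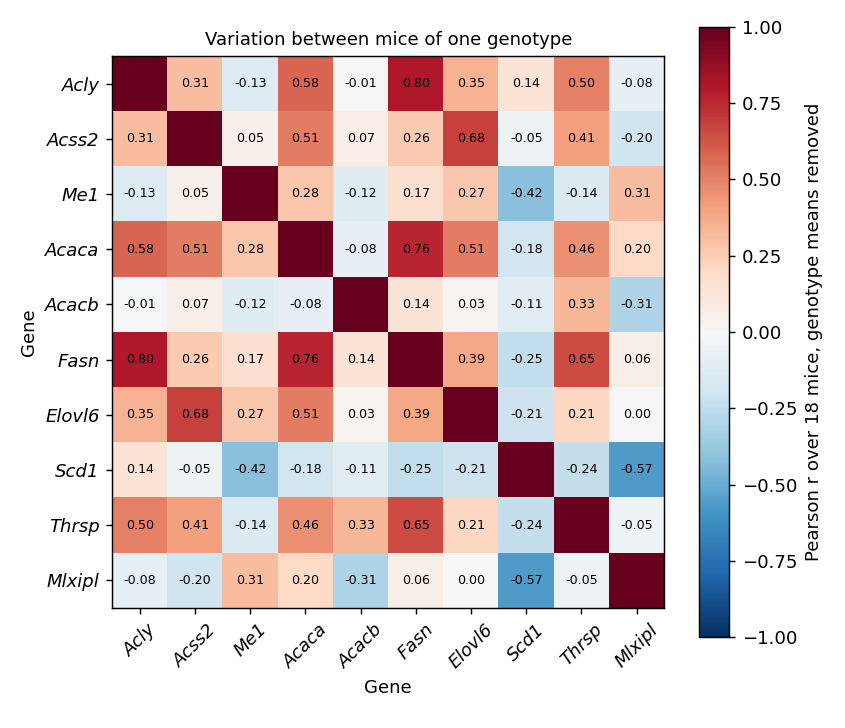
Both axes list the lipogenic genes, and each cell prints Pearson's r of log2 CPM over 18 mice after removal of the genotype means, red for positive and blue for negative. Acly, Acaca and Fasn have r of 0.58 to 0.80 with each other. Acss2 with Elovl6 (0.68) and Fasn with Thrsp (0.65) are also high, and the lowest cell is Scd1 with Mlxipl at -0.57.

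Among the genes most like the members, ranked by r with their mean among 11931 genes over 18 libraries, Pcyt1a (r = 0.85), an enzyme of phosphatidylcholine synthesis, came first, and others were Ttc23 (0.78), Tmem63a (0.76), Prkacb (0.75), Chn2, Cnr2 and Aacs (each 0.72), and Pomt1 and Slc12a7 (each 0.71). Likeness within a genotype and the difference between genotypes were separate properties. Pcyt1a did not pass the test (log2 fold change -0.04, edgeR adjusted p = 0.715), while Aacs, which activates acetoacetate for lipid synthesis, fell by 1.05 on the log2 scale (edgeR adjusted p = 0.0142).

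Of 76 other genes of the pathway and its surroundings, 73 were tested: 5 were higher in A226Y, 13 were lower and 55 did not pass. Among 16 transcription regulators of lipogenesis, 2 were higher and 4 lower, with a median log2 fold change of -0.08. Srebf1, the gene of the insulin-driven activator SREBP-1, measured 42.3, 86.3 and 157.6 CPM at its lowest, median and highest in A226Y and 113.5, 187.9 and 314.3 CPM in WT, with 8 of 10 A226Y mice under every WT mouse. Its log2 fold change was -1.22 (SE 0.26, edgeR adjusted p = 0.00551), and with surrogate variables it was -0.68 and did not pass (edgeR adjusted p = 0.121). Insig2, which holds the SREBP complex in the endoplasmic reticulum, measured 132.2, 207.7 and 582.4 CPM in A226Y and 90.9, 113.3 and 143.1 CPM in WT. It was above every WT mouse in 9 of 10 A226Y mice, with a log2 fold change of 1.13 (SE 0.23, edgeR adjusted p = 0.00423), or 0.89 without A226Y animal 29. Mbtps2, a protease that releases SREBP, was higher by 0.38 (SE 0.09, edgeR adjusted p = 0.0107; 0.32 and not past the test with surrogate variables, edgeR adjusted p = 0.076), and Mlx, the DNA-binding partner of ChREBP, had a value of 0.05 (95% interval -0.06 to 0.17, edgeR adjusted p = 0.572).

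The other called regulators, Srebf2, Insig1 and Usf1, were lower. Among 13 further genes known as ChREBP targets 1 was lower and 0 higher, with 5 at an unadjusted p under 0.05 and a median log2 fold change of -0.05. The gene that passed was Pklr, liver pyruvate kinase, at 71.9, 130.9 and 255.9 CPM in A226Y and 193.3, 239.2 and 284.9 CPM in WT (log2 fold change -0.75, SE 0.19, edgeR adjusted p = 0.0139). Txnip, another such target, had a value of 0.39 (edgeR adjusted p = 0.12) and Fgf21 one of 0.80 (edgeR adjusted p = 0.0661), neither past the test. Khk had a value of -0.28 (edgeR adjusted p = 0.0848) and Pnpla3 one of -0.61 (edgeR adjusted p = 0.0814), and neither passed. The targets thus had point estimates on both sides of 0, with 8 of 13 below it.

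Among 9 genes of citrate, acetyl-CoA and NADPH supply, 2 were lower and 0 higher (median log2 fold change -0.13, with 3 at an unadjusted p under 0.05). Pyruvate carboxylase (Pcx) fell by 0.28 on the log2 scale (516.8 ± 52.0 against 628.5 ± 49.3 CPM, SE 0.07, edgeR adjusted p = 0.0125) and Idh1, a cytosolic source of NADPH, fell by 0.38 (332.1 ± 65.3 against 430.7 ± 45.4 CPM, SE 0.11, edgeR adjusted p = 0.0338). Idh1 lost its call in 7 of the 18 fits that left out 1 mouse, with surrogate variables (-0.23, edgeR adjusted p = 0.136) and with the transcript length offset (-0.32, edgeR adjusted p = 0.0801), and Pcx lost its call with surrogate variables (-0.19) and with the GC offset (-0.21). The mitochondrial citrate carrier Slc25a1 had a value of -0.21 (SE 0.07, edgeR adjusted p = 0.0581) and passed with DESeq2 (adjusted p = 0.0369), without A226Y animal 5 (edgeR adjusted p = 0.0472) and without A226Y animal 29 and WT animal 33 (edgeR adjusted p = 0.0488). For G6pdx, the entry to the pentose phosphate route, the value was -0.03 (edgeR adjusted p = 0.925). The value for G6pdx was at or above 0 with library size alone, with surrogate variables and with either offset.

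Of 12 genes of insulin signalling, AMPK and malonyl-CoA breakdown, 1 was higher and 2 lower (median 0.02). Prkaa1, a catalytic subunit of AMPK, was higher by 0.21 (SE 0.06, edgeR adjusted p = 0.03), and Stk11, the kinase that activates AMPK, was lower at -0.21 (SE 0.06, edgeR adjusted p = 0.0346). Both lost their calls in several of the 18 fits that left out 1 mouse, Prkaa1 in 5 and Stk11 in 7. Prkaa1 also lost its call with surrogate variables and with either offset, and Stk11 with those settings, with library size only and with no filter.

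Of 12 genes of fatty acid activation and triglyceride synthesis, 2 were higher and 2 lower (median 0.12). Dgat2, which adds the last acyl chain to triglyceride, fell by 0.46 on the log2 scale (584.3 ± 79.2 against 802.6 ± 120.9 CPM, SE 0.10, edgeR adjusted p = 0.00569), with 9 of 10 A226Y mice under every WT mouse. Acsl3, an acyl-CoA synthetase, was also lower. Lpin2, a phosphatidate phosphatase, rose by 0.55 (453.8 ± 70.1 against 309.1 ± 80.5 CPM, SE 0.13, edgeR adjusted p = 0.0103), and Gpam, the mitochondrial glycerol phosphate acyltransferase, rose by 0.29 (SE 0.08, edgeR adjusted p = 0.0229). With surrogate variables neither passed, at 0.19 for Lpin2 (edgeR adjusted p = 0.252) and 0.14 for Gpam (edgeR adjusted p = 0.383), and Gpam also lost its call with the length offset and without WT animal 13 or 14. Synthesis genes thus gave calls in both directions.

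Paralogues of the members gave 2 lower and 0 higher among 11 tested of 14 (median -0.06, with 3 at an unadjusted p under 0.05). Mid1ip1, the paralogue of Thrsp whose product promotes carboxylase assembly, measured 32.4 ± 10.6 CPM in A226Y and 57.5 ± 15.4 CPM in WT (log2 fold change -0.83, SE 0.18, edgeR adjusted p = 0.00588; -0.57 with surrogate variables, edgeR adjusted p = 0.0529), under every WT mouse in 9 of 10 A226Y mice. Elovl3, at 1.89 ± 0.694 against 4.58 ± 3.07 CPM, had a value of -1.26 (SE 0.37, edgeR adjusted p = 0.0281) but p = 0.0519 in the exact permutation test, and it lost its call with surrogate variables (-0.10), with limma-voom (-0.88) and without WT animal 13, 14 or 21. Mlxip, the paralogue of Mlxipl, had a value of 0.22 (edgeR adjusted p = 0.205), and Scd2 one of -0.06 (edgeR adjusted p = 0.787).

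**Figure D4:**
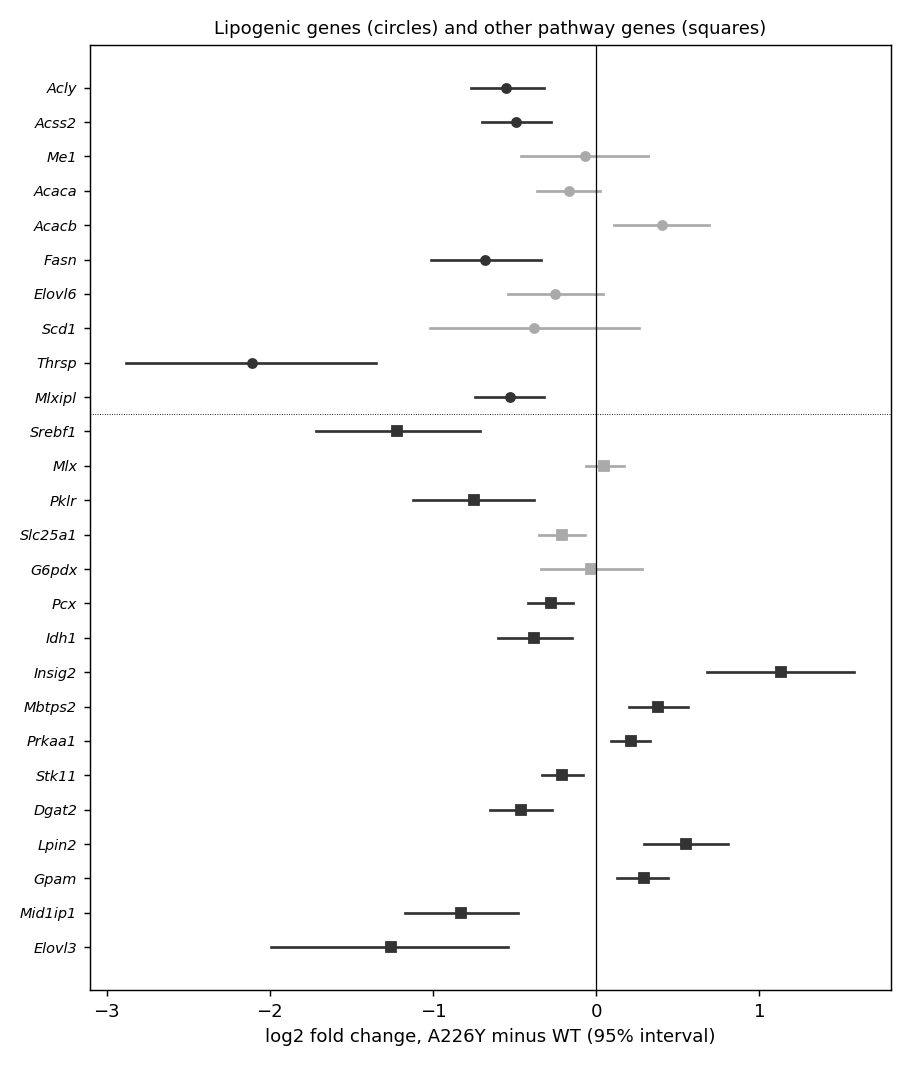
The x axis gives the log2 fold change of A226Y over WT with its 95% interval, for the lipogenic genes (circles) and other pathway genes named in the text (squares); black marks genes past the adjusted threshold and grey those that did not pass. Thrsp at -2.11 is farthest to the left and Insig2 at 1.13 farthest to the right.

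Markers of other liver cells are given for the whole of each list. Lipogenic enzymes are abundant in adipose tissue, and adipocyte markers were low: the 6 markers summed to 5.22 to 16.9 CPM in A226Y and 4.12 to 11.4 CPM in WT, and 5 of 6 failed the abundance filter. Kupffer cell markers ran from 220.8 to 919.7 CPM in A226Y and from 331.3 to 673.2 CPM in WT, where the A226Y maximum was animal 29 alone. Their medians were 302.8 CPM in A226Y and 491.2 CPM in WT, 5 of the 6 markers had a negative log2 fold change (median -0.43, beside -0.44 for the lipogenic members), and Clec4f passed as lower (log2 fold change -0.65, edgeR adjusted p = 0.0261). Stellate cell markers gave 1 lower of 5, Col3a1, and ranged from 300.4 to 360.0 CPM in A226Y and from 290.3 to 365.0 CPM in WT. Endothelial (5 genes), cholangiocyte (4) and lymphocyte (5) markers gave 0 calls in edgeR, with 1, 1 and 0 at an unadjusted p under 0.05. Of the 8 hepatocyte markers, 2 were higher (Cps1 and Tat) and 1 was lower (Asgr1). The part of cell composition in the lipogenic results was not tested.

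**Figure D5:**
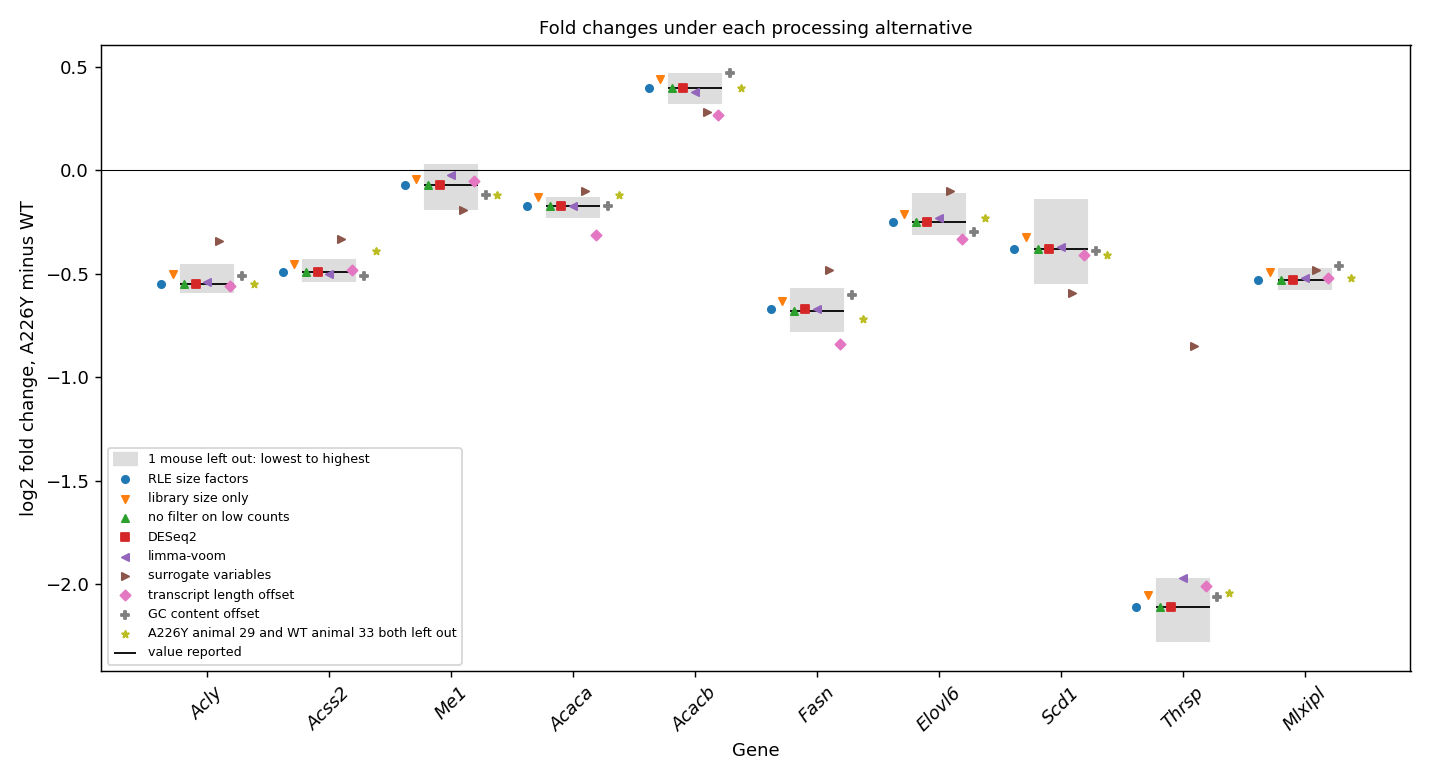
For each lipogenic gene the y axis gives the log2 fold change of A226Y over WT as reported (black line), under each alternative way of processing (symbols) and over the 18 fits that left out 1 mouse (grey box, lowest to highest). Thrsp moves from -2.11 to -0.85 with surrogate variables and stays below 0, as do the other called members.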

How the data were processed

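RNA of 18 livers was sequenced with 1 library per mouse. The authors deposited raw read counts by Ensembl gene identifier, in whole numbers. The study's methods name RSEM with an Ensembl annotation, and the submitters' processing notes name GRCm38, STAR, featureCounts and fastp; which step made the counts, and whether it used strand, is not given in the sources used here. Symbols, exon lengths and coordinates came from GENCODE M21 (GRCm38), which named 22214 of 22524 identifiers. The 13353 genes that reached 10 counts in 50% or more of either genotype's libraries were tested in edgeR 4.0.16 (R 4.3.3), with TMM scaling, a quasi-likelihood fit without covariates and Benjamini-Hochberg adjustment (threshold 0.05). CPM are TMM-scaled; log2 CPM use a prior count of 2. Exact permutation tests are two-sided; correlations used 100000 resamples within genotype. All libraries differed beyond sampling noise.

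The members and lists were chosen with earlier results of these data known. Named genes were the members, Rps2, Srebf1, Mlx, Pklr, Slc25a1, G6pdx, up to 3 genes of lowest adjusted p per pathway list, paralogues that passed and the 10 genes most correlated with the members; other names were added after their values were seen, and some genes the rule names are not reported here. Alternatives were RLE scaling, library size only, no filter, DESeq2 1.42.0, limma 3.58.1 (voom), 4 surrogate variables (sva 3.50.0), offsets for transcript length and GC content, and each mouse left out; leaving out A226Y animal 29 and WT animal 33 together was added after seeing the data. On simulated counts for this comparison (13265 genes) edgeR recovered 90 of 99 genes changed by a log2 fold of 1 and 64 of 97 changed by 0.58, with 9 false calls.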

Additional observations from a re-analysis of the deposited data

Results flagged for a closer look

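Of 56 groups of values examined (members and named genes in each genotype), 4 held a mouse far from the others of its genotype, 7.14% of the groups, where chance gives about 1 in 20. The groups share mice, so they are not independent. A226Y animal 29 had 48.7 CPM of Acss2, with the nearest A226Y mouse at 68.0 CPM. The same animal had 11.5 CPM of G6pdx, against 7.05 CPM in the nearest, and 582.4 CPM of Insig2, against 306.4 CPM. WT animal 14 had 85.9 CPM of Elovl6, with the nearest WT mouse at 57.6 CPM. Animal 29 was also the library least like the others.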

How the results depend on the processing

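No paired analysis was run, because the sample labels give no litter or other pairing of the mice. Over all genes 971 were higher and 939 lower; with surrogate variables these were 120 and 165, and when 1 mouse was left out they ran from 633 to 1268 and from 622 to 1372 (without WT animal 14, 633 and 622; without WT animal 24, 641 higher). Library size alone put 67.9% of the calls on the higher side, beside 50.8%. The members gave 5 lower in each of the 18 fits that left out a mouse (5 to 5), and 2 with surrogate variables, where Acly (-0.34), Fasn (-0.48) and Thrsp (-0.85) kept their direction without passing. The count of higher members, 0, became 1 (Acacb) with library size only, DESeq2 and the GC offset, and ran from 0 to 1 with a mouse left out (1 without A226Y animal 5 or WT animal 13). Other pathway genes gave 5 higher: 8 with library size only, 9 with DESeq2, 1 with surrogate variables, 3 with the length offset, 10 without A226Y animal 29 and WT animal 33, and 3 to 11 with a mouse left out (9 without WT animal 6, 3 without WT animal 13 or 14, 11 without A226Y animal 29). Their 13 lower became 2 with surrogate variables, 8 with the GC offset and 6 to 15 with a mouse left out (8 without WT animal 13 or 24, 6 without WT animal 14). The sign turned for Me1 (0.03 without WT animal 6, 0.00 without WT animal 13 or A226Y animal 29, lowest -0.19 without WT animal 33), for Mlx with surrogate variables (-0.03) and for G6pdx (0.02 with library size only, 0.01 with surrogate variables, 0.00 with either offset, and -0.19 to 0.02 with a mouse left out); none of these passed in any fit. Among single members 258 values kept direction and call, 6 came to pass, 3 no longer passed and 3 turned sign. Where a value moved, the cause was not tested. Acaca, with 334 counts at least, was the least covered member, so depth did not limit detection of any member.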
